A study of Mus musculus with 25 samples.

Results

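The 34 genes described here encode non-cathepsin parts of the lysosome: soluble acid hydrolases, membrane proteins and transporters, the hydrolase activators prosaposin and progranulin, 6 components of the proton pump (V-ATPase) and the transcription factors TFEB and TFE3. They were taken by symbol from a table of 30749 genes, and all 34 had a row and passed the filter on low values. The libraries were mouse RNA-seq libraries of cells sorted as microglia or as MDM (the usual abbreviation for monocyte-derived macrophages) from glioblastoma (GBM) models that the labels divide into tumour types 1 and 2, each grown as spontaneous or as transplanted tumours. From type 1 tumours there were 3 spontaneous and 3 transplanted microglia libraries, with 2 spontaneous and 4 transplanted MDM libraries. From type 2 tumours there were 3 spontaneous and 3 transplanted microglia libraries, with 1 spontaneous and 2 transplanted MDM libraries, which makes 21 libraries in 8 groups. The labels name no strain, driver allele, treatment, age or sort gate, and the 4 control microglia samples from brain without tumour are not analysed here, so no value is set against tumour-free brain. Separate animals or cultures are not stated for any group, and the p-values then reflect only library-to-library variation, part of which may be technical.

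Lysosomes break down material that a cell has taken up or recycled, and microglia and macrophages, which clear debris, carry many of them. The V-ATPase pumps protons into the lumen: its V1 sector uses ATP outside the membrane and its V0 sector forms the channel. At the low pH it makes, hydrolases cut sugars, sulfate esters, lipids and proteins, LAMP1 and LAMP2 line the membrane, and transporters such as NPC1 and ENT3 export the products. TFEB and TFE3 are MiT family factors that bind the CLEAR element in promoters of many lysosome genes, and loss of several of these genes causes a lysosomal storage disease.

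The promoters are shown because 2 of the listed genes are the factors that read this element. RefSeq windows from 250 bases before to 50 bases after each start (GRCm38.p6) existed for 29 of the 34 genes. The CLEAR core, spelled TCACGTGA and identical on both strands, was searched for in each window, and 4 genes held it, with 2 matches for Gla. Each stretch below is written 5′ to 3′ along the gene's own strand, with the core in capitals.
Mcoln1, chr8:3500453-3500500 (+): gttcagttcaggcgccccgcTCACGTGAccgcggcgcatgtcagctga
Atp6v0d1, chr8:105566041-105566088 (-): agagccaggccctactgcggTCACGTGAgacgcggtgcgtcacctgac
Atp6v1a, chr16:44139364-44139411 (-): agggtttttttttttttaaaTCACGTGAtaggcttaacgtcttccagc
Gla, chrX:134601206-134601253 (-): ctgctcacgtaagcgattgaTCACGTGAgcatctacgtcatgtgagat
Gla, chrX:134601173-134601220 (-): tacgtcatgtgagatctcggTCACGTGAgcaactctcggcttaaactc
The core began 46 bases before the start in Mcoln1, 4 in Atp6v0d1, 132 in Atp6v1a, and 228 and 195 in Gla. For Atp6v1a that start is an internal one, since the printed stretch lies within the gene (chr16:44085402-44139702). It was present in 13.8% of the 29 genes with a window and in 1.12% of the 27025 genes in the promoter table (0.974% of its windows). The shorter E-box CACGTG, which lies inside the core, was in 8 of the 29 genes (27.6%; Arsa, Gaa, Glb1 and Lamp1 in addition) and in 8.09% of all genes. A match is only these letters in this window, and binding was not measured.

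The levels below are normalised counts, reads divided by 1 size factor per library. Per kilobase of annotated exon, a scale on which genes can be compared, the mean level over 12 microglia libraries was highest for Psap (prosaposin, cut into the saposins that help lipid hydrolases), at 109004 ± 30201 (SD, n = 12). Grn, which encodes progranulin, followed at 107974 ± 28162, closer to Psap than their spread. Laptm5, a transmembrane protein of blood-derived cells, stood at 71912 per kilobase, Lamp1 at 59952 and Hexa at 37407. These 5 genes made up a median of 67.6% of the reads of all 34 in microglia. At the other end, Atp6v0d2 stood at 24.35 per kilobase, below Galc at 375.4. Together the 34 genes took 2.7% to 4.1% of the reads in the 12 microglia libraries and 0.997% to 2.9% in the 9 MDM libraries. Their spread between libraries was also wider in MDM: the median coefficient of variation was 50.3% over MDM libraries and 24% over microglia libraries, with all 4 tumour classes pooled. Asah1 varied least over microglia (13.3%) and Atp6v1h least over MDM (26.3%), while Atp6v0d2 varied most in both (80.9% and 110%). Per kilobase, Psap also ranked first in MDM at 47393 ± 26765 (SD, n = 9), followed by Laptm5 at 37879, Grn at 28245 and Lamp1 at 15375.

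The libraries were checked against their labels with marker lists. All 12 microglia markers (such as Tmem119 and P2ry12) were lower and all 12 MDM markers (such as Ccr2 and Ly6c2) higher in MDM. However, 5 of the 9 MDM libraries, all 4 from type 1 transplanted tumours and library 1 from type 2 transplanted tumours, were rich in T and NK cell transcripts. The 18 measured genes of that list of 20 summed to 281640 to 345103 normalised counts in those 5, 15296 to 45586 in the other 4 MDM libraries and 116.8 to 6830 in microglia, and each of the 18 had reads in all 9 MDM libraries. B cell markers were higher in the same 5 (22636 to 55207, against 779.2 to 3854 in the other 4). Among those other 4, type 1 spontaneous MDM library 2 had the highest sums of all 21 libraries for 2 further lists. These were dendritic cell markers (78129) and endothelial and mural markers (10459, against 4764 or less elsewhere). Members of the endothelial and mural list were uneven, with means over the 9 MDM libraries from 0.1324 (Tek) to 2005 (Pecam1), and Cldn5 at 3.333. Siglech is on both the dendritic cell and the microglia lists. The 2 sums alone therefore do not show which cells were present. Microglia markers summed to 13782 to 35855 in the 5 and 104399 to 245626 in the other 4, against 664811 or more in microglia. Among microglia libraries, type 1 spontaneous library 2 had an MDM marker sum of 79961, against 3181 to 12527 in the other 11. Most of that sum came from 1 gene of the list, Chil3, at 49273. In bulk libraries such as these, fewer cells of a type and less RNA per cell cannot be told apart. The comparison over all classes is therefore given with and without the 5 libraries, as are the counts of the other pathway lists, and beyond the values given their part was not tested. Total reads ran from 26530069 to 50365607 per library.

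**Figure D1:**
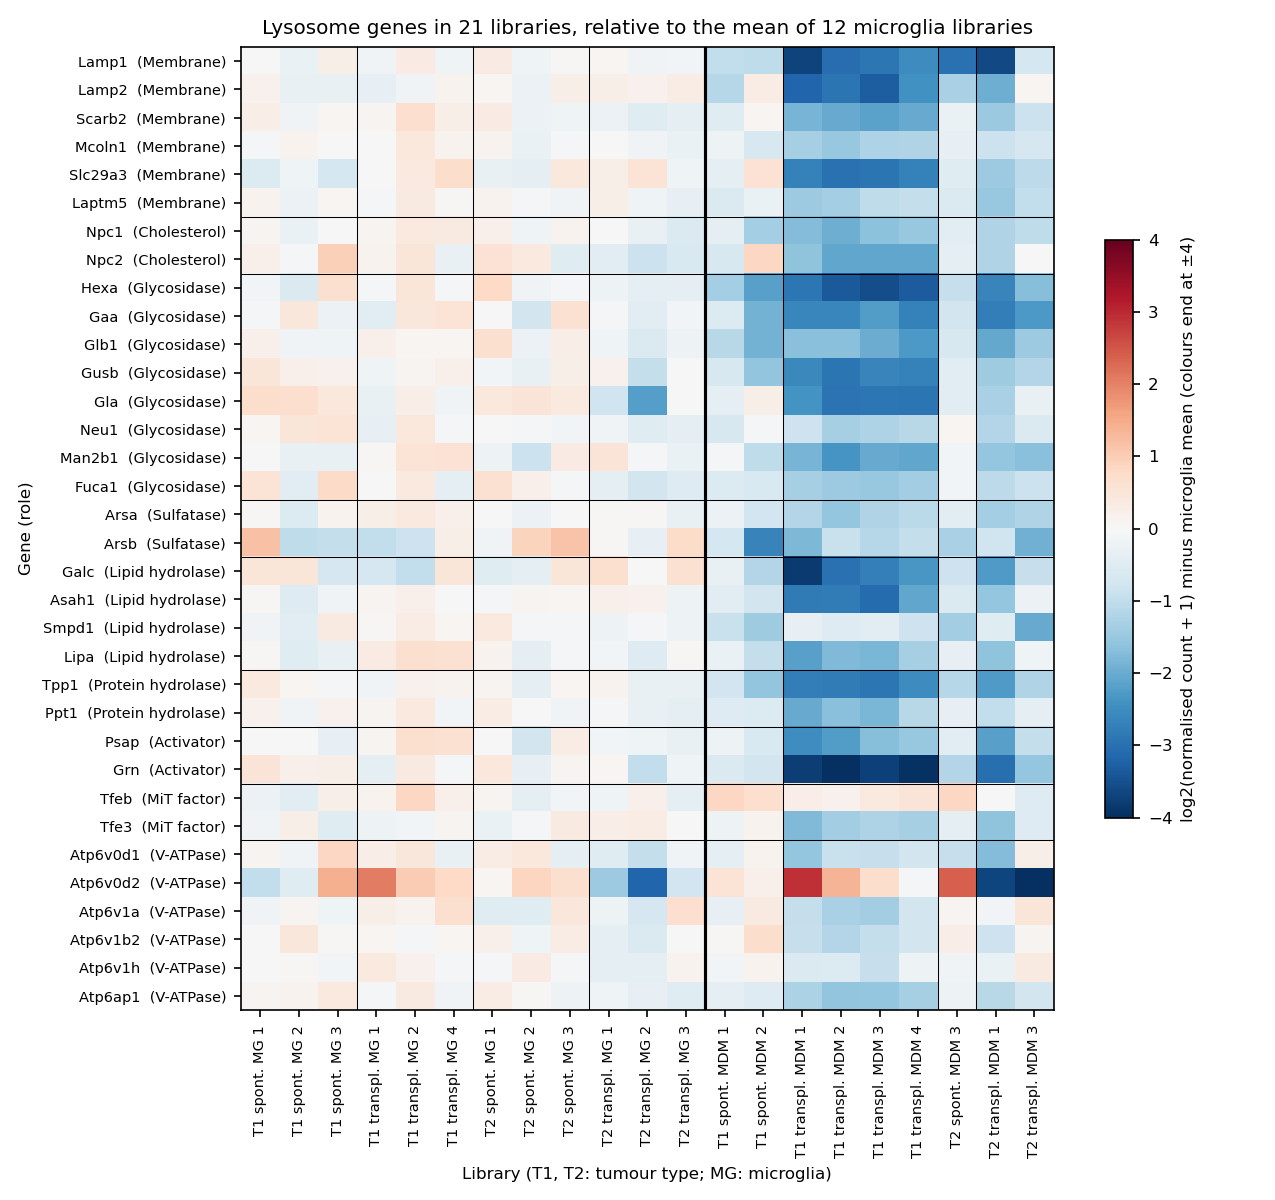
Each cell shows log2(normalised count + 1) of 1 of the 34 genes (rows, grouped by role) in 1 of 21 libraries (columns, grouped by tumour type T1 or T2, model and cell type) minus the mean of the 12 microglia libraries, with blue below and red above that mean. The 4 type 1 transplanted MDM libraries form the deepest blue block, Tfeb and the V-ATPase rows are paler, and Atp6v0d2 is the most variable row.

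The first comparison set MDM against microglia over the 4 tumour classes (type and model), each weighted equally. Of the 34 genes, 29 were lower in MDM and 1, Tfeb, was higher (limma, Benjamini-Hochberg adjusted p under 0.05 over 17216 genes). Over all tested genes, 19.8% were lower and 23.0% higher, and the median log2 difference was 0.07, against -0.96 for the 34. All of the membrane proteins, hydrolases, activators and cholesterol carriers on the list were among the 29, with Tfe3 and 2 of the 6 V-ATPase genes. Without the 4 type 1 transplanted MDM libraries, 17 were lower and 1 higher (all genes, 13.5% lower), and without all 5 T and NK rich libraries 11 were lower and 0 higher (all genes, 11.8% lower), with a median of -0.46. With every library rescaled to the same total, 28 of the 34 were lower; over all genes that scaling gave 2533 lower and 5226 higher, against 3404 and 3952 in the first fit. The 11 lower without the 5 libraries were Lamp1, Npc1, Hexa, Gaa, Glb1, Gusb, Arsa, Arsb, Smpd1, Tpp1 and Grn.

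Among the membrane proteins, Lamp1 (chr8:13159161-13175338), a heavily glycosylated lining protein, had the largest difference. In microglia its normalised counts ran from 109686 to 166826 with a median of 128432. In type 1 spontaneous MDM they were 67264 and 65034, in type 1 transplanted MDM 10255, 16190, 18014 and 23083, in the type 2 spontaneous MDM library 16625, and in type 2 transplanted MDM 10826 and 81150. Every MDM library lay below every microglia library. Lamp1 was 4.91-fold lower in MDM, with a log2 difference of -2.30 ± 0.28 (SE; adjusted p = 3.3e-06). Without the 5 libraries the difference was -1.57 ± 0.21 (adjusted p = 0.00028). Reads on the 7.94% of its exonic bases shared with Grtp1, on the other strand, cannot be assigned, since the library kit does not mark strand.

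Lamp2, its partner in the membrane and a component of chaperone-mediated autophagy, ran from 33848 to 51473 in microglia with a median of 45226. It stood at 19210 and 51855 in type 1 spontaneous MDM, 4321 to 7806 in type 1 transplanted MDM, 17168 in the type 2 spontaneous library, and 10918 and 44199 in type 2 transplanted MDM. MDM library 2 of type 1 spontaneous tumours was above the whole microglia range and library 3 of type 2 transplanted tumours within it, and the other 7 lay below. The log2 difference of -1.41 ± 0.24 (adjusted p = 0.00011) became -0.59 ± 0.25 (adjusted p = 0.11) without the 5 libraries. Scarb2 (LIMP-2, the receptor that carries glucocerebrosidase to lysosomes) was 10433 to 23261 in microglia and 3355 to 15337 in MDM, a difference of -0.91 ± 0.14. Laptm5 was 146780 to 238722 in microglia and 65205 to 154377 in MDM, a difference of -0.86 ± 0.17. Mcoln1, the calcium channel TRPML1 and a gene with the CLEAR core in its promoter, was 3030 to 4861 in microglia and 1280 to 3171 in MDM, a difference of -0.71 ± 0.12. In Laptm5 and Mcoln1 only 1 MDM library, and in Scarb2 3, reached the microglia range, and none of the 3 genes was called without the 5 libraries (adjusted p of 0.075, 0.062 and 0.22).

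Slc29a3 encodes ENT3, which exports nucleosides from the lysosome. Its counts were 7694 to 20442 in microglia with a median of 11954, and 9909 and 18963 in type 1 spontaneous MDM. They were 1951, 1582, 1670 and 1924 in type 1 transplanted MDM, 9112 in type 2 spontaneous MDM, and 4618 and 6136 in type 2 transplanted MDM. All 6 transplanted MDM libraries lay below the microglia, and the 3 spontaneous MDM libraries lay within the microglia range. Over all classes the difference was -1.11 ± 0.17 (adjusted p = 3.2e-05), and without the 5 libraries -0.34 ± 0.24 (adjusted p = 0.35).

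NPC1 and NPC2 hand cholesterol from the lumen to the membrane. Npc1 was 1910 to 3713 in microglia and 740.4 to 2214 in MDM, a difference of -1.03 ± 0.14 (adjusted p = 1.3e-05) that was called without the 5 libraries too (-0.68 ± 0.20, adjusted p = 0.025). Npc2 was 26534 to 93823 in microglia. In MDM it was 11468 to 15771 in the 4 type 1 transplanted libraries, 21016 in type 2 transplanted library 1 and 31176 to 86144 in the other 4. Its difference of -0.71 ± 0.23 (adjusted p = 0.019) was -0.06 ± 0.32 (adjusted p = 0.92) without the 5.

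**Figure D2:**
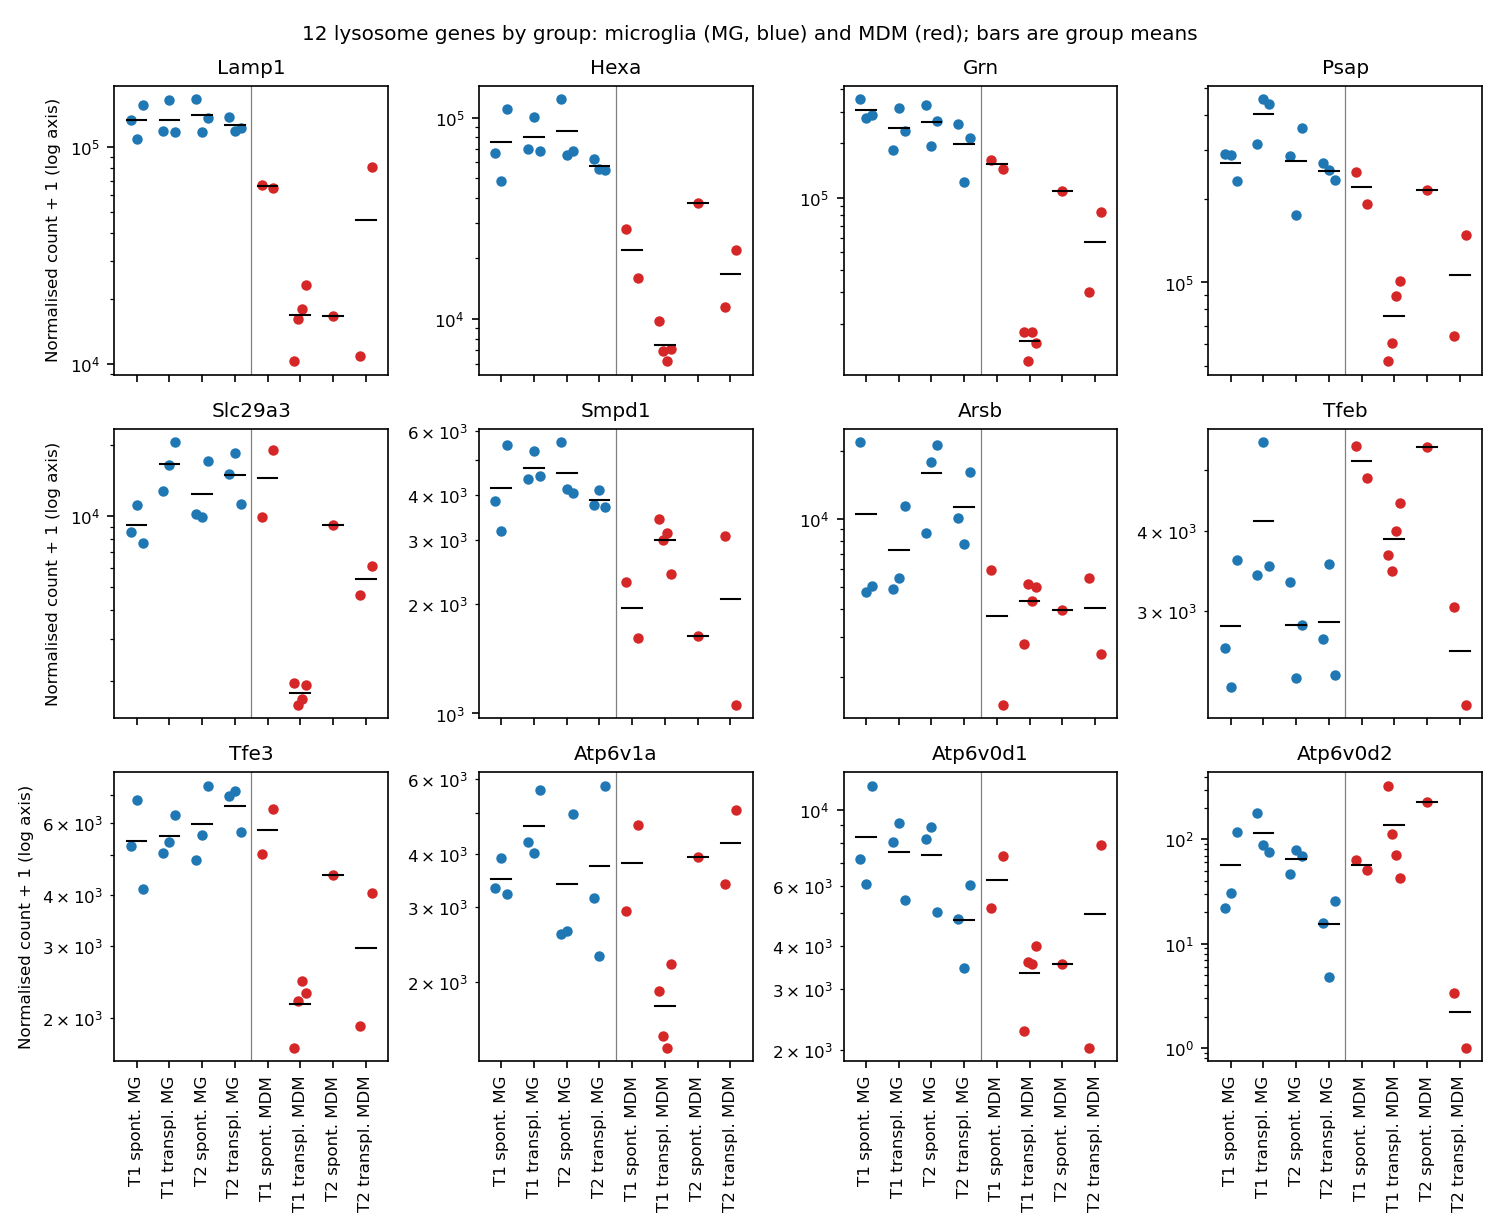
Normalised counts plus 1 (log axis) of 12 of the genes in each library, by group; blue points are microglia, red points MDM, and bars are group means. Lamp1 and Hexa show all red points below all blue points, Slc29a3 is lowest in type 1 transplanted MDM, Smpd1 is lowest in the 4 MDM libraries poor in T and NK cell transcripts, and Atp6v0d2 is near 0 in type 2 transplanted MDM.

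All 8 glycosidases were lower in MDM. Hexa (chr9:59539540-59565109), the alpha subunit of beta-hexosaminidase A that is missing in Tay-Sachs disease, was 48270 to 123702 in microglia with a median of 67785. It was 28029 and 15914 in type 1 spontaneous MDM, 9759, 6919, 6159 and 7075 in type 1 transplanted MDM, 37675 in type 2 spontaneous MDM, and 11426 and 21940 in type 2 transplanted MDM. No MDM value reached the lowest microglia value. The difference was -2.04 ± 0.21, or 4.10-fold (adjusted p = 3.4e-07), and -1.42 ± 0.28 (adjusted p = 0.003) without the 5 libraries.

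Glb1, the beta-galactosidase used as a senescence stain, was 4211 to 9679 in microglia and 1285 to 4027 in MDM, again without overlap, and differed by -1.45 ± 0.15 (adjusted p = 6.4e-07). Gaa, which degrades glycogen and is deficient in Pompe disease, was 6821 to 17412 in microglia and 1659 to 7697 in MDM. Only type 1 spontaneous MDM library 1 was above the lowest microglia library, and the difference was -1.76 ± 0.21 (adjusted p = 2.2e-06). Gusb (beta-glucuronidase) was 16243 to 44309 in microglia and 4161 to 23533 in MDM, and Man2b1 (alpha-mannosidase) 29491 to 79878 and 10351 to 49753. Gla (alpha-galactosidase A, deficient in Fabry disease) was 577.3 to 4341 in microglia and 344.9 to 3144 in MDM. The 3 differed by -1.38 ± 0.17, -1.09 ± 0.18 and -1.02 ± 0.23. Fuca1 (alpha-fucosidase) and Neu1 (sialidase) had the smallest differences of this group, -0.77 ± 0.16 and -0.57 ± 0.14. Of these 8, Hexa, Gaa, Glb1 and Gusb were called without the 5 libraries.

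The sulfatases remove sulfate groups from lipids and glycosaminoglycans. Arsa was 2017 to 3891 in microglia and 1015 to 2533 in MDM, a difference of -0.87 ± 0.13 (adjusted p = 3.2e-05). Arsb was the hydrolase with the largest error: its counts were 4745 to 21807 in microglia and 1512 to 5968 in MDM, and it differed by -1.39 ± 0.34 (adjusted p = 0.0026). For Arsb, 48.2% of exonic bases are shared with the antisense gene Gm26527, and for Arsa 19.8% with C230037L18Rik, so both values are uncertain. Both were called without the 5 libraries (Arsa -0.62, adjusted p = 0.02; Arsb -1.81, adjusted p = 0.019).

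The lipid hydrolases were all lower in MDM, with 1 gene of a different pattern. Galc (galactosylceramidase, which acts on myelin lipids) was 679.9 to 2062 in microglia and 93.62 to 1081 in MDM, a difference of -1.53 ± 0.28. Asah1 (acid ceramidase) was 27756 to 45915 in microglia and 4731 to 34048 in MDM, a difference of -1.19 ± 0.18. Lipa (lysosomal acid lipase) was 8398 to 18493 in microglia and 2661 to 10449 in MDM, a difference of -0.90 ± 0.18. The 4 type 1 transplanted MDM libraries were below every microglia library for all 3 genes. None of these 3 was called without the 5 libraries, with adjusted p of 0.064, 0.091 and 0.51. Smpd1 (chr7:105554360-105558389), acid sphingomyelinase, was 3187 to 5579 in microglia. It was 2294 and 1608 in type 1 spontaneous MDM, 1635 in type 2 spontaneous MDM and 1056 in type 2 transplanted library 3. In the 5 T and NK rich libraries it was higher, at 3429, 3011, 3140, 2419 and 3075. Smpd1 was the only one of the 34 with all 5 above the other 4 MDM libraries. Its difference was -1.08 ± 0.18 (adjusted p = 8.3e-05) over all libraries and larger, -1.47 ± 0.18 (adjusted p = 0.00013), without the 5.

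Of the enzymes that act on proteins, Tpp1 (tripeptidyl peptidase, deficient in a form of Batten disease) was 19863 to 33446 in microglia and 3490 to 15154 in MDM, without overlap. It differed by -1.70 ± 0.16 (adjusted p = 1.8e-07), the smallest p of the 34, and by -1.16 ± 0.20 (adjusted p = 0.0012) without the 5 libraries. Ppt1, which removes palmitate from proteins, differed by -0.80 ± 0.15 (adjusted p = 0.00021), and by -0.38 ± 0.16 (adjusted p = 0.11) without them.

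Grn (chr11:102430507-102436809) was 122798 to 351647 in microglia with a median of 261530. It was 162630 and 144946 in type 1 spontaneous MDM, 18104, 12460, 18142 and 15797 in type 1 transplanted MDM, 108909 in type 2 spontaneous MDM, and 30293 and 83554 in type 2 transplanted MDM. The type 1 spontaneous MDM libraries overlapped the microglia range and the other 7 lay below it. Progranulin transcript was 4.03-fold lower in MDM (-2.01 ± 0.22, adjusted p = 1.0e-06) and 2.19-fold lower without the 5 libraries (-1.13 ± 0.30, adjusted p = 0.015). Psap (chr10:60277628-60302600) was 175220 to 455662 in microglia and 52024 to 248845 in MDM. Its difference of -1.10 ± 0.23 (adjusted p = 0.00073) was -0.45 ± 0.29 (adjusted p = 0.32) without the 5.

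The 2 MiT factors differed in opposite directions. Tfeb (chr17:47737037-47792416) was 2275 to 5524 in microglia with a median of 3091. It was 5457 and 4855 in type 1 spontaneous MDM, 3671, 3460, 4001 and 4433 in type 1 transplanted MDM, 5424 in type 2 spontaneous MDM, and 3044 and 2133 in type 2 transplanted MDM. The groups overlapped widely. The difference was 0.40 ± 0.15 (1.32-fold, adjusted p = 0.031), and the call was lost in 7 of the 21 fits with 1 library left out, with quantile normalization, and without the 5 libraries (0.47 ± 0.19, adjusted p = 0.1). Tfe3 was 4132 to 7385 in microglia and 1691 to 6461 in MDM, and fell by 0.72 on the log2 scale (SE 0.16, adjusted p = 0.0011), with -0.33 (adjusted p = 0.21) without the 5 libraries.

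Of the 6 V-ATPase genes, 2 were lower in MDM and 4 were not called. Atp6ap1, an accessory protein of the pump, was 23548 to 43706 in microglia and 11100 to 28743 in MDM and differed by -0.75 ± 0.13 (adjusted p = 0.00014). Atp6v0d1 (chr8:105524461-105566064), the widely expressed form of V0 subunit d, was 3452 to 11751 in microglia and 2021 to 7901 in MDM and differed by -0.69 ± 0.24 (adjusted p = 0.025). Its call was lost in 3 of the 21 fits with 1 library left out. The V1 subunits A (the catalytic one), B and H were not called: Atp6v1a -0.20 (95% interval -0.60 to 0.21), Atp6v1b2 -0.17 (-0.49 to 0.15) and Atp6v1h -0.16 (-0.45 to 0.12). For those 3 the estimate was above 0 when libraries were rescaled to the same total, and without the 5 libraries none of the 6 V-ATPase genes was called.

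**Figure D3:**
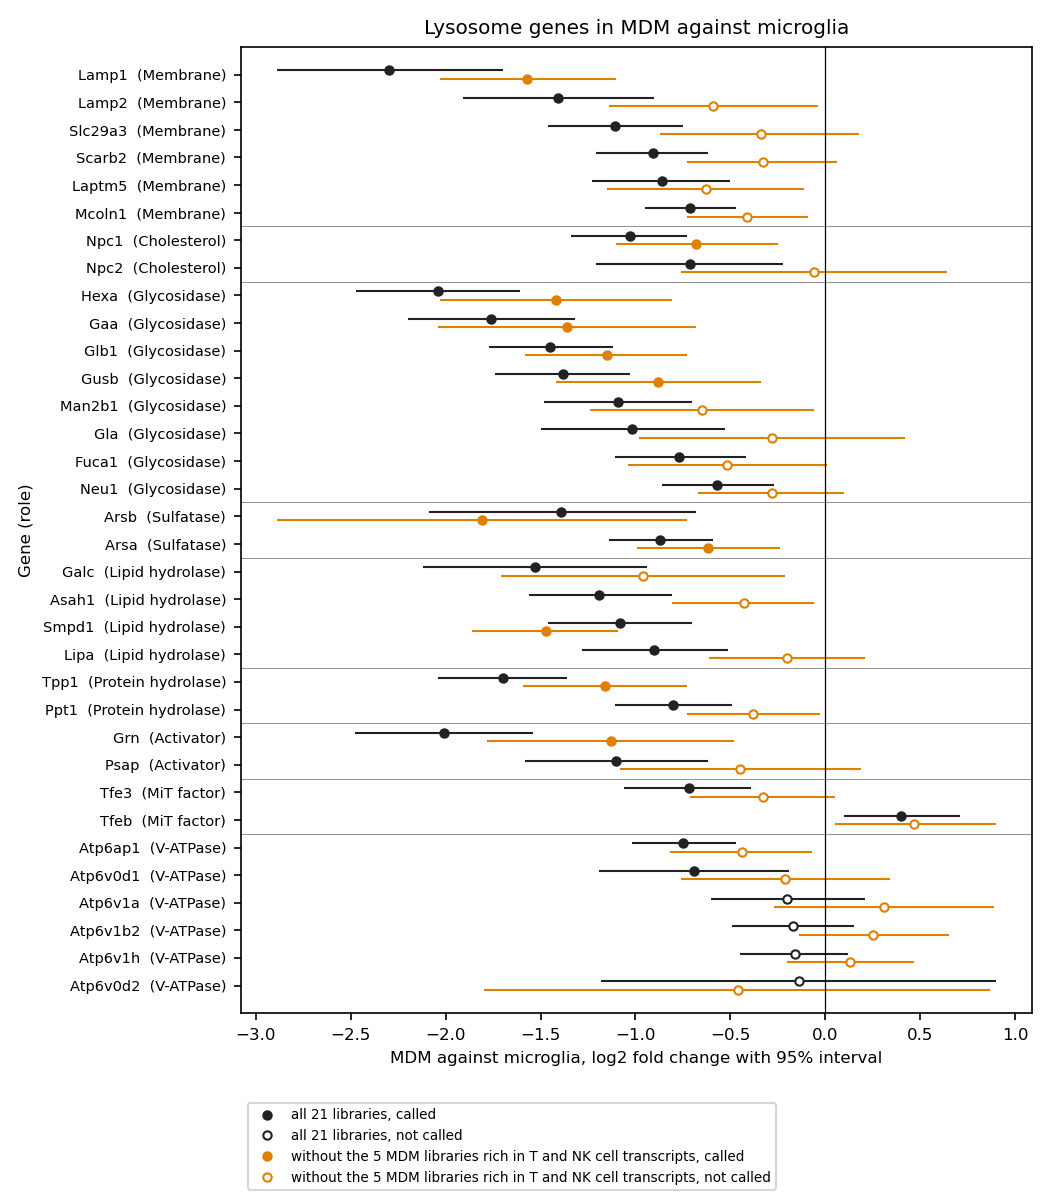
Log2 fold change of MDM against microglia with its 95% interval for each of the 34 genes, ordered by role; black is all 21 libraries, orange leaves out the 5 MDM libraries rich in T and NK cell transcripts, and filled points passed the adjusted p threshold. Black points are left of 0 for 33 genes, and most orange points are nearer 0. Smpd1, Arsb and Tfeb are among those further from it in orange, and the orange points of Atp6v1a, Atp6v1b2 and Atp6v1h lie right of 0.

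Looking at single libraries, 4 of the 34 genes (Lamp1, Hexa, Glb1 and Tpp1) had all 9 MDM libraries below all 12 microglia libraries, against 3.06% of all tested genes. With only the 4 MDM libraries poor in T and NK transcripts, 5 genes did (Smpd1 in addition), against 3.81% of all genes. The 5 T and NK rich libraries lay below the other 4 MDM libraries for 20 of the 34 genes, against 6.95% of all genes. Gla, Grn, Slc29a3, Lamp2 and Asah1 were among these 20. The share of reads from the 34 genes was 0.997% to 1.33% in the 5 libraries and 1.89% to 2.9% in the other 4.

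**Figure D4:**
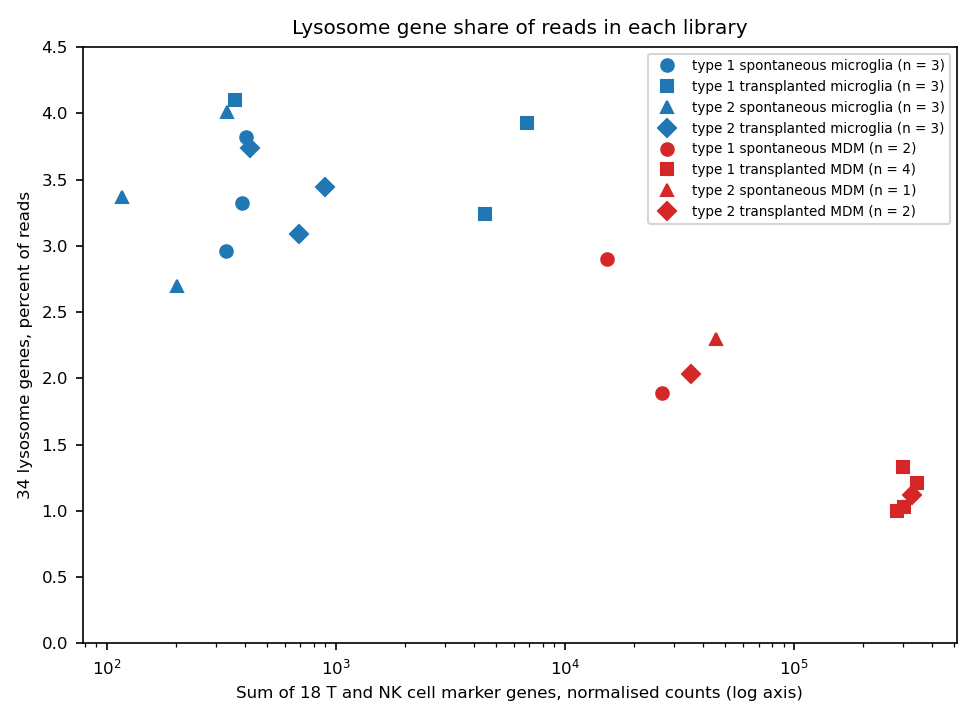
Percent of reads from the 34 lysosome genes (vertical axis) against the summed normalised counts of 18 T and NK cell markers (horizontal log axis) in each of the 21 libraries; blue is microglia, red MDM, and shapes give tumour type and model. Microglia lie between 2.7% and 4.1%, the 4 MDM libraries with fewer T and NK transcripts between 1.89% and 2.9%, and the 5 rich ones between 0.997% and 1.33%.

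Within single tumour classes, which differ in their number of libraries, between 2 and 30 of the genes were lower in MDM. In type 1 spontaneous tumours, 6 were lower in MDM (all genes, 4.86%): Hexa (-1.75 ± 0.40), Glb1 (-1.45 ± 0.30), Gusb, Tpp1, Gaa and Smpd1. Tfeb was higher by 0.89 ± 0.28 (adjusted p = 0.042; all genes higher, 8.52%). These calls depend on MDM library 2, without which none was called lower, and with the tumour number as a block 3 were lower and 0 higher. In type 2 spontaneous tumours, where MDM had 1 library and the spread comes from the other groups, 2 were lower (all genes, 5.73%): Lamp1 (-3.06 ± 0.69, adjusted p = 0.0084) and Smpd1 (-1.47 ± 0.44, adjusted p = 0.038). With the block neither was called.

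In type 1 transplanted tumours, 30 of the 34 were lower in MDM (all genes, 15.9%), with a median of -2.02. Grn was 15-fold lower (-3.90 ± 0.36, adjusted p = 3.4e-07), Hexa 10.7-fold (-3.41 ± 0.33), Slc29a3 9.14-fold (-3.19 ± 0.27) and Lamp1 8.17-fold (-3.03 ± 0.46). Here Atp6v1a (-1.41 ± 0.31), Atp6v1b2 (-0.98 ± 0.24) and Atp6v1h (-0.74 ± 0.22) were lower too. The 4 not called were Smpd1, Arsb, Tfeb and Atp6v0d2. All 4 MDM libraries of this class are among the T and NK rich ones, so the class and that content cannot be told apart.

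In type 2 transplanted tumours, 17 were lower (all genes, 8.45%), from Gaa (-2.33 ± 0.41, adjusted p = 0.00089) and Lamp1 (-2.09 ± 0.55) to Scarb2 (-0.80 ± 0.27). Without the T and NK rich MDM library 1, 4 were lower. Of the 34 genes, 23 had an estimate below 0 in all 4 classes, and Lamp1, Hexa, Gaa, Glb1, Gusb, Smpd1 and Tpp1 were called lower in 3 of them. The share of all genes with either pattern was not counted, so whether these counts are particular to the 34 was not tested.

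Microglia of the 2 tumour types were also compared, as were microglia of the 2 models. Between tumour types, limma called 0 of the 34 genes (all genes in either direction, 0.470%), and voom called 0. Of the 34, 3 had an unadjusted p under 0.05 (all genes, 1530 of 17216). The median log2 difference, type 2 minus type 1, was -0.20, and the smallest adjusted p was 0.5, for Scarb2 (-0.39, 95% interval -0.75 to -0.04). Over the 34 genes, the 95% intervals reached from -2.55 to 1.64. Between models, limma and voom again called 0 (all genes, 1.84%), with 3 at an unadjusted p under 0.05 (all genes, 3339 of 17216).

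Gla came nearest in that comparison. Its counts were 3521 to 4341 with a median of 3713 in spontaneous microglia and 577.3 to 3166 with a median of 2297 in transplanted microglia, so all 6 transplanted libraries were below all 6 spontaneous ones. The share of all genes with such a separation was not counted, so whether it is unusual was not tested. The difference was -1.06 ± 0.28 with an adjusted p of 0.061, and it passed when type 2 transplanted microglia library 3 (-1.31, adjusted p = 0.015) or type 2 spontaneous microglia library 3 (-1.07, adjusted p = 0.04) was left out. Slc29a3 was called higher in transplanted microglia (0.69, adjusted p = 0.041) only without type 2 spontaneous library 3. Fuca1 was called lower (-0.73, adjusted p = 0.035) only without type 1 spontaneous library 2, the library with the high MDM marker sum. No gene of the 34 was called for the interaction of tumour type and model in microglia (all genes, 0.0116%), and voom called 0. Only Atp6v0d2 had an unadjusted p under 0.05 (all genes, 1088 of 17216).

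MDM of type 1 transplanted tumours were compared with MDM of type 1 spontaneous tumours. Of the 34 genes, 24 were lower in the transplanted tumours (all genes, 7.96%) and 0 higher by limma or by voom. An unadjusted p under 0.05 was found for 28 (all genes, 4575 of 17216). The largest differences were those of Grn (-3.27 ± 0.41, 9.63-fold, adjusted p = 0.0001), Slc29a3 (-2.95 ± 0.31), Gla (-2.72 ± 0.42), Lamp2 (-2.54 ± 0.44) and Galc (-2.23 ± 0.51). The 4 transplanted libraries had T and NK marker sums of 281640 to 345103 and the 2 spontaneous ones 15296 and 26456. With each library rescaled to the same total, 9 were lower and 1 higher, and without either spontaneous MDM library 14 or 15 were lower.

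MDM of type 2 and type 1 transplanted tumours were compared next. In type 2, 8 of the 34 were higher and 1 lower (2.96% of all genes in each direction). The 8 were Lamp2 (2.01 ± 0.44), Gla (1.99 ± 0.42), Asah1 (1.80 ± 0.33), Grn (1.66 ± 0.41), Slc29a3 (1.58 ± 0.31), Gusb (1.42 ± 0.31), Atp6v1a (1.27 ± 0.35) and Ppt1 (0.97 ± 0.27). Type 2 library 1 has a T and NK marker sum of 328866, within the range of type 1, and library 3 has 35592. Leaving out either library leaves type 2 with 1 MDM library, and whether any of the 34 was called then depended on which library remained.

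The gene that was lower in type 2 was Atp6v0d2 (chr4:19876838-19922566), the form of V0 subunit d with restricted expression, known from osteoclasts. Its read numbers in type 1 transplanted MDM were 408, 127, 108 and 57, and in type 2 transplanted MDM 2 and 0. The 2 sets did not overlap. As normalised counts these are 326.5, 110.9, 69.68 and 41.39, against 2.383 and 0. The ratio of the summed reads per unit of size factor, type 1 to type 2, was 130, with an exact 95% interval from 36 to 1080 that covers counting error only. The fitted log2 difference was -5.80 ± 0.91 (adjusted p = 0.0017), a size that depends on the pseudocount of 1. The other MDM libraries had 62.7 and 49.43 normalised counts in type 1 spontaneous and 226.2 in type 2 spontaneous tumours. Microglia ran from 3.808 to 178.3, and their 3 type 2 transplanted libraries were low as well, at 14.76, 3.808 and 24.54. Over all classes Atp6v0d2 differed between MDM and microglia by -0.14 ± 0.50 (adjusted p = 0.84), and its sign changed with the pseudocount and the scaling.

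Whether the MDM against microglia difference itself depends on the tumour was tested with interaction terms. For tumour type, limma and voom called 0 of the 34 (all genes, 0.0871%), and the smallest adjusted p was 0.1, for Gusb (1.39 ± 0.34). An unadjusted p under 0.05 was found for 14 (all genes, 2231 of 17216). For model, 4 were called (all genes, 2.24%), each with a more negative MDM against microglia difference in transplanted tumours: Slc29a3 (-2.43 ± 0.34, adjusted p = 0.0017), Man2b1 (-1.95 ± 0.37, adjusted p = 0.011), Scarb2 (-1.31 ± 0.28, adjusted p = 0.019) and Grn (-1.80 ± 0.45, adjusted p = 0.041). For Slc29a3 the difference was 0.60 in type 1 and -0.39 in type 2 spontaneous tumours, neither called, and -3.19 and -1.45 in the transplanted ones. With the tumour number of the sample descriptions as a block, over tumours with both cell types, 0 of the 34 were called. The 5 T and NK rich libraries are 5 of the 6 transplanted MDM libraries and none of the 3 spontaneous ones, so model and that content are largely confounded.

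Other genes of the pathway were counted from lists in the same comparison of MDM with microglia over all classes, in which 19.8% of all genes were lower and 23.0% higher. Without the 5 libraries, 11.8% of all genes were lower and 2095 of 17216 higher. Those are the shares for the counts in brackets here and in the next paragraph, several of which lie near them. Among 14 cathepsins and legumain, 11 were lower and 3 higher (7 and 2 without the 5 libraries), and these are not described further. Of 31 other lysosomal hydrolases, 23 were lower and 3 higher (18 and 3 without the 5 libraries). Arsg differed by -3.05 ± 0.27 and the phospholipase Pla2g15 by -2.63 ± 0.17. In the opposite direction, Acp5 (tartrate-resistant acid phosphatase) differed by 4.17 ± 0.31 and Smpdl3a by 2.41 ± 0.20, and both were called without the 5 libraries (4.12 and 2.86). Of 31 other membrane proteins tested, 22 were lower and 5 higher (6 and 1 without the 5 libraries), with Laptm4b at -1.83 ± 0.15 and the channels Mcoln3 and Mcoln2, relatives of Mcoln1, at 2.67 ± 0.82 and 2.33 ± 0.58. Mcoln3 is a low gene, with means of 57.79 normalised counts in MDM and 4.392 in microglia, and neither channel was called without the 5 libraries (adjusted p of 0.41 and 0.4).

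Of 16 other V-ATPase genes tested, 8 were lower and 1 higher (3 and 0 without the 5 libraries). The lower ones included Atp6v0a1 (-1.52 ± 0.18), Atp6v1c1 (-1.19 ± 0.14) and Atp6ap2 (-1.13 ± 0.15). Of 14 sorting genes, 6 were lower and 2 higher (4 and 1 without the 5 libraries). The sorting receptor Sort1 differed by -2.76 ± 0.32, and by -2.11 without the 5. Of the mannose 6-phosphate receptors, which deliver hydrolases, Igf2r differed by 1.81 ± 0.55, with 0.48 (adjusted p = 0.68) without the 5, and M6pr, named here after its value was seen, by -0.43 ± 0.13 (adjusted p = 0.013). Of 25 MiT and mTORC1 control genes, 8 were lower and 2 higher (5 and 2 without the 5 libraries). Mitf, another MiT factor, differed by -1.77 ± 0.23 (-0.84 without the 5), and the Rag GTPase gene Rragd by -2.13 ± 0.39. Rragb, another Rag GTPase gene, had 174.7 ± 74.13 normalised counts in MDM (SD, n = 9) and 7.865 ± 16.41 in microglia (n = 12), where several libraries had no read. Of 22 fusion and positioning genes, 5 were lower and 6 higher, close to the shares over all genes (1 and 4 without the 5 libraries), with Bloc1s2 at 1.34 ± 0.15 and Arl8a at -1.28 ± 0.24. The median log2 differences of these lists were -1.09 for hydrolases, -0.71 for membrane proteins, -0.43 for V-ATPase, -0.40 for sorting, -0.09 for MiT and mTORC1 control and -0.03 for fusion and positioning, beside 0.07 over all genes.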

How the data were processed

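RNA from sorted cells was made into SMART-Seq v4 libraries, per the labels' protocols. The authors deposited variance-stabilised log2 values, with STAR 2.7.8a, DESeq2 and mm10 named in the submitters' processing notes; the gene annotation is not given in the sources used here. The transform has a floor of 4.22 and was inverted, which gave whole reads (within 0.001) for 100% of values after 1 size factor per library. Genes with a normalised count of at least 10 in at least 3 libraries (17216) were tested with limma 3.58.1 (R 4.3.3) on log2(normalised count + 1), with 1 mean for each of 8 groups, 12 comparisons, and Benjamini-Hochberg adjustment; the fold changes are on that log2 scale. The step was also run on simulated libraries with independent counts and a fixed dispersion. That setting is simpler than these data, with their mixed cell content, so it does not test the calls given here. Exon lengths came from GENCODE vM21 and promoters from RefSeq. Libraries carry the numbers of the sample descriptions, which pair some MDM and microglia of 1 tumour number. All 34 members are named; of each other list, up to 4 genes with the smallest p and 2 with the largest opposite change, except 1 result that is not reported here. Members and lists were chosen with earlier results of these data known. The fits without T and NK rich libraries were added after seeing the data. Alternatives were another pseudocount, filter, normalization, scale or tool, a replicate block, and each library left out in turn.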

Additional observations from a re-analysis of the deposited data

Results flagged for a closer look

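Among the 4 type 1 transplanted MDM libraries, the only group large enough for a test of single extreme values, library 1 stood apart from the other 3 for Gla, with 504.1 normalised counts against 344.9 to 356.8, and for Npc2, with 15771 against 11468 to 11562. Of 34 genes tested this way, chance alone would mark about 1 in 20.

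For 4 genes the MDM against microglia difference itself differed between transplanted and spontaneous tumours, by the interaction term in limma. The change was -2.43 for Slc29a3, -1.95 for Man2b1, -1.80 for Grn and -1.31 for Scarb2, each a more negative difference in transplanted tumours; with the tumour number as a block 0 of the 34 genes were called. The T and NK marker sums of the transplanted MDM libraries, 281640 to 345103 in 5 of 6, move with this difference, and their part in it was not tested.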

How the results depend on the processing

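With 8 other settings of the pseudocount, filter, scaling, scale, tool and block, 27 to 29 of the 34 genes were lower in MDM than in microglia, and 27 to 29 with 1 library left out. Rescaling every library to the same total shifted the median of all genes by 0.22 log2 (5226 genes higher and 2533 lower, against 3952 and 3404), and quantile normalization by -0.15. Without the type 1 transplanted MDM libraries 17 were lower, and without type 2 transplanted MDM library 1 as well 11 were lower and 0 higher; those fits have fewer libraries and classes. The cause of the other changes below was not tested.

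The single higher gene, Tfeb, gave 0 with quantile normalization and 0 to 1 with 1 library left out. Within type 1 spontaneous tumours it gave 0 without the filter, with quantile normalization, without the T and NK rich libraries and with the block, and 0 to 1 with 1 library left out, while 0 to 8 genes were lower. Within type 1 transplanted tumours 28 to 31 were lower with 1 library left out. Within type 2 spontaneous tumours 1 to 3 were, with 1 without the filter, 1 with the same total (and 1 higher), and 1 without the type 1 transplanted MDM libraries. Within type 2 transplanted tumours 4 to 18 were lower, with 11 and 1 without the 4 and the 5 rich libraries; the 4 came without MDM library 1, and 10 without microglia library 1.

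Between models of microglia, leaving out 1 library gave 0 to 1 lower and 0 to 1 higher. For type 2 against type 1 transplanted MDM, leaving out 1 library gave 0 to 16 higher and 0 to 2 lower, and the same total gave 5 higher. For transplanted against spontaneous type 1 MDM, 14 to 25 were lower, with 15 under quantile normalization and 9 (1 higher) under the same total. For cell type by model, 3 to 12 were lower, with 7 under a filter on a mean of 50; 12 came without type 2 transplanted MDM library 3 and 9 without type 2 spontaneous microglia library 3. Without type 2 spontaneous MDM library 3, that class and both cell type interactions gave no value.

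Differences near 0 changed sign. With the same total they were 0.08 for Atp6v0d2, 0.04 for Atp6v1a, 0.07 for Atp6v1b2 and 0.07 for Atp6v1h. Without the 4 type 1 transplanted MDM libraries they were 0.21 for Atp6v1a, 0.10 for Atp6v1b2 and 0.03 for Atp6v1h, and without the 5 they were 0.31, 0.25 and 0.13. Atp6v0d2 was 0.21 with a pseudocount of 8, 0.18 on the deposited values, and -0.81 to 0.08 with 1 library left out. A called difference, not near 0, changed sign as well. Laptm5 within type 1 transplanted tumours was -1.31 ± 0.28 in the first limma fit (adjusted p = 0.0013, called lower). With quantile normalization it was 0.27 (adjusted p = 0.47). Npc2 lost its call in 2 of 21 fits with 1 library left out.

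The first fit did not treat tumour numbers shared by MDM and microglia as pairs. Correlations of deviations ran from 0.04 to 0.24 and did not all pass a set threshold of 0.1. Each of 7 was nevertheless highest with its own number. The low correlations therefore do not show that the libraries are unpaired, and the p-values of the first fit leave out any pairing. With the number as a replicate block, 28 genes were lower and 1 higher over all classes, 3 and 0 in type 1 spontaneous, 0 in type 2 spontaneous tumours, and 0 for cell type by model.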
